A study of Mus musculus with 18 samples.

Results

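Heart muscle cells pull through the sarcomere, a repeating unit in which actin thin filaments and myosin thick filaments slide past each other. The genes described here encode the parts that hold this unit together: the Z-disc that anchors thin filaments, the M-band that ties thick filaments at the centre, the regulators and caps of the thin filament, and the chaperones and ubiquitin ligases that look after sarcomeric proteins. A list of 40 such genes was drawn up by name, with the myosin, troponin and actin isoforms left out, and matched to the 12048 genes of the tables by symbol. It found 39 of them, and Nrap was not analysed here. The list does not use measured values of these libraries, but it was proposed with earlier results of the same libraries known.

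Expression was measured by RNA-seq in cardiomyocytes from Mlc2vcre:R26REYFP mice, in which a Cre recombinase driven by the ventricular myosin light chain gene Mlc2v switches on a yellow fluorescent reporter; every group carries both alleles. Cells with 1 nucleus (1N, mononucleated) and with 2 nuclei (2N, binucleated) were separated by FACS in late embryos (E18.5, days of gestation), in pups on postnatal day 7 (P7) and in adults, whose exact age was not given in the sources used here. The 6 groups hold 3 libraries each, 18 in all. Nothing in the labels ties the replicates to different animals, and every p-value therefore reflects the spread among these libraries only, which may be technical. Mlc2v-driven Cre marks ventricular cells, and how nuclear number was read in the sort was not given in the sources used here.

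As background, newborn cardiomyocytes leave the cell cycle after birth, many after a last division of the nucleus without division of the cell, which leaves them binucleated. During the same period the sarcomere matures: Z-discs broaden and align, the M-band acquires its adult proteins, and several protein families change the isoform they express. Titin spans from the Z-disc to the M-band as a spring and ruler, alpha-actinin cross-links thin filaments at the Z-disc, and many smaller LIM and PDZ domain proteins sit on these scaffolds and bind signalling molecules.

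The libraries hold 14833334 to 22690952 counts each, and the member with the fewest reads in any library had 47 counts (Xirp2). Of the 39 genes, 36 had at least 100 counts in every library. Values below are CPM, reads of a gene set against the scaled size of its library with the authors' factors, and fold changes are fitted on the log2 scale. A gene is said to have risen, fallen or changed where limma's adjusted p over all 12048 genes was under 0.05. The 10 listed cardiomyocyte markers were detected in every library, at a summed 32500 to 49900 CPM. Library 1 of the E18.5 2N group stood apart from the other libraries: its members departed from the other libraries of its group with an SD of 0.83 on the log2 scale. In any other library the SD was at most 0.518, and at most 0.398 outside this group, whose other libraries are themselves compared with library 1. Values without library 1 are given beside the results that it moves most.

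Sequence around the transcription start was available for 34 of the 39 genes, in 48 windows of 300 bases (250 before to 50 after the start, RefSeq, build GRCm38.p6). The search covered 3 motifs tied to muscle genes on both strands: the CArG box bound by serum response factor, the MEF2 site, and the MCAT element bound by TEAD factors, which reads CATTCC or, on the other strand, GGAATG. A CArG box was present in 14.6% of the windows of these genes, against 1.63% of all 32851 windows of the same length, a MEF2 site in 16.7% against 3.19%, and an MCAT element in 22.9% against 14.7%. No motif match overlapped another one in the windows of these genes. A match is a description of the letters and not evidence of binding, and alternative starts of 1 gene can share sequence. The following stretches, with the match in capitals and read 5′ to 3′ on the gene's strand, belong to genes whose levels are described below because they changed most or differ between close relatives.
Xirp2: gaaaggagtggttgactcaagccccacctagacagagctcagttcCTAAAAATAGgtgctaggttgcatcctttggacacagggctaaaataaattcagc
Trim54: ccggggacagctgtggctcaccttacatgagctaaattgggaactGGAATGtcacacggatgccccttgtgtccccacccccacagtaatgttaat
Synpo2: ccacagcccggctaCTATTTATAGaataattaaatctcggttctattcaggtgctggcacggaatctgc
Synpo2l: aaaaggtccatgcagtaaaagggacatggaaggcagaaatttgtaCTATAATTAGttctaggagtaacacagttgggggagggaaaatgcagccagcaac
Fhl2: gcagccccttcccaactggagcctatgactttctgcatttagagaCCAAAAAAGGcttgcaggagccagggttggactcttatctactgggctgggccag
Fhl1: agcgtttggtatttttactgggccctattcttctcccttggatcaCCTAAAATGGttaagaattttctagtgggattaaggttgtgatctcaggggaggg
Pdlim3: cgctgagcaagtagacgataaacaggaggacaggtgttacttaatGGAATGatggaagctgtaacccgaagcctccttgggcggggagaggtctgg
The Xirp2 stretch lies at chr2:67445883-67445982 on the plus strand and holds a MEF2 site. The Trim54 stretch, at chr5:31116492-31116587 on the plus strand, holds an MCAT element written as GGAATG. Synpo2 at chr3:123236331-123236399 and its relative Synpo2l at chr14:20668409-20668508, both on the minus strand, each hold a MEF2 site. The LIM-only genes Fhl2 at chr1:43196803-43196902 on the minus strand and Fhl1 at chrX:56779536-56779635 on the plus strand each hold a CArG box, and Pdlim3 at chr8:45885241-45885336 on the plus strand holds GGAATG. Synpo2 and Synpo2l moved in opposite directions with age, as the values below show. A link between a motif match and a level was not tested.

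The age comparisons set adult or P7 cells against younger cells of the same nuclear class. Between E18.5 and the adult, 27 of the 39 genes (69.2%) changed in 1N cells, 19 up and 8 down, and 29 (74.4%) changed in 2N cells, 24 up and 5 down. The share of all genes that changed was 53.8% in 1N cells (26.2% up, 27.7% down) and 57.7% in 2N cells (28.3% up, 29.4% down). The median change of the 39 genes was 0.418 on the log2 scale in 1N cells and 0.703 in 2N cells, where the median over all genes was -0.012 and -0.016. The 1N and 2N comparisons use separate libraries: 18 genes rose in both, 5 fell in both (Pdlim1, Pdlim3, Synpo2l, Tpm2 and Trim55), and 6 changed in neither (Capzb, Csrp3, Flnc, Nebl, Pdlim7 and Unc45b). Without library 1 of E18.5 2N, 35 genes (89.7%) changed in 2N cells, 27 up and 8 down, against 63.0% of all genes. The 8 that fell were then the same genes as in 1N cells, with Obsl1, Palld and Sorbs2 added. The balance of rises and falls depends on the scaling. Under quantile normalization, which forces 1 distribution on all libraries, 11 rose and 13 fell in 1N cells and 13 rose and 11 fell in 2N cells. Of all 12048 genes, 3017 rose and 3126 fell in 1N and 3413 rose and 3219 fell in 2N cells in that setting.

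By P7, 13 of the 39 genes (33.3%) had changed from E18.5 in 1N cells, 10 up and 3 down, against 10.7% of all genes up and 7.84% down. In 2N cells it was 22 (56.4%), 20 up and 2 down, against 36.0% of all genes (18.2% up, 17.7% down). Quantile normalization gave 12 up and 4 down in 2N cells, against 2222 up and 2069 down of all 12048 genes. From P7 to the adult, 22 genes changed in each class, 16 up and 6 down in 1N cells against 41.4% of all genes (19.1% up, 22.3% down), and 14 up and 8 down in 2N cells against 37.0% (17.3% up, 19.7% down). Under quantile normalization these became 8 up and 9 down in 1N cells and 9 up and 10 down in 2N cells. Of all 12048 genes, 2324 rose and 2339 fell in 1N and 1920 rose and 2118 fell in 2N cells in that setting. Without library 1 of E18.5 2N, 20 genes changed to P7 in 1N cells (14 up, 6 down) against 32.4% of all genes (17.8% up, 14.6% down), so that this count moved by over 1.5 times. In bulk libraries, fewer cells of a type and less RNA per cell cannot be told apart.

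**Figure D1:**
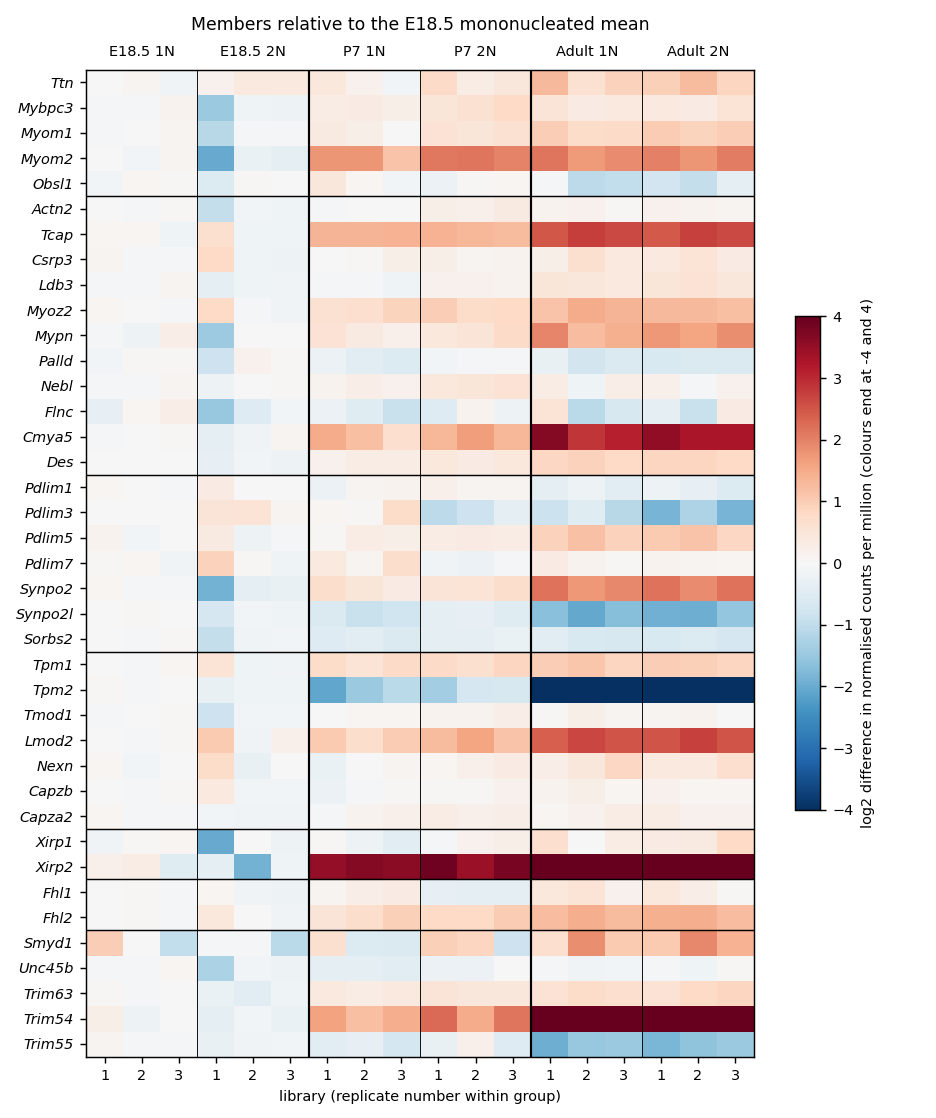
Log2 difference of each of the 39 genes (rows, grouped by role) from the mean of the E18.5 1N libraries, in each of the 18 libraries (columns); the colour scale ends at -4 and 4. Xirp2, Trim54, Cmya5, Tcap and Lmod2 are highest in the adult libraries and Tpm2 is lowest there, and the first E18.5 2N column differs from its neighbours.

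The M-band and thick filament group holds titin, myosin-binding protein C, the myomesins and obscurin-like 1. Myom2 (ENSMUSG00000031461), the M-protein of the M-band, reached its higher level by P7. At E18.5 it stood at 539.7, 511 and 593 CPM in 1N and 135, 452 and 420.0 CPM in 2N libraries. At P7 it stood at 1866, 1851 and 1201 CPM in 1N and 2378, 2386 and 2174 CPM in 2N libraries. Adult libraries held 2420.0, 1778 and 2046 CPM in 1N and 2188, 1840.0 and 2244 CPM in 2N cells. All P7 and adult libraries lay above all E18.5 libraries, and P7 and adult libraries overlapped. The rise to P7 was 2.94-fold in 1N cells (log2 1.55 ± 0.32, adjusted p = 0.00263) and 7.83-fold in 2N cells (log2 2.97 ± 0.32, adjusted p = 3.78e-06). Without library 1 of E18.5 2N the 2N rise to P7 was 5.30-fold, and adult 2N cells were 4.78-fold above E18.5 in place of 7.06-fold.

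Mybpc3, which binds myosin and regulates cross-bridges, stood at 4140.0, 4192 and 4800.0 CPM in E18.5 1N libraries and at 1555, 3882 and 3810.0 CPM in E18.5 2N libraries. P7 libraries held 5345, 5450.0 and 5129 CPM in 1N and 6154, 6603 and 7510.0 CPM in 2N cells, and adult libraries 5425 to 6347 CPM over both classes. The lowest E18.5 2N value is library 1. The 2N rise to P7 was 2.37-fold (adjusted p = 0.000953, limma), and 1.75-fold without that library; the 1N difference of log2 0.28 ± 0.24 missed the threshold (adjusted p = 0.483). Titin (Ttn) held 1974 to 2869 CPM at E18.5, 2016 to 3651 CPM at P7 and 3330.0 to 5338 CPM in the adult, with an adult rise of 1.94-fold in 1N (adjusted p = 0.000335) and 1.63-fold in 2N cells (adjusted p = 0.00348). The Ttn rise in 2N cells turned to -0.08 on the log2 scale under quantile normalization, and in 1N cells it was no longer called. Myom1, the myomesin present in all striated muscle, rose 1.77-fold in 1N and 2.60-fold in 2N cells from E18.5 to the adult (adjusted p = 0.00285 and 2.55e-05), and quantile normalization ended both calls. Its E18.5 2N libraries held 399.8, 844 and 813 CPM, so that library 1 enlarges the 2N rise, which was still called without it.

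Obsl1, a cytoskeletal linker related to obscurin, was the member of this group that fell. E18.5 libraries held 163, 181 and 178 CPM in 1N and 118, 179 and 176 CPM in 2N cells, and P7 libraries 239.5, 185 and 159.6 CPM (1N) and 148, 181 and 182 CPM (2N). Adult values were 163, 85.0 and 88.7 CPM in 1N and 103, 89.8 and 134 CPM in 2N cells. Adult 1N library 1 lay within the P7 1N range while the other adult 1N libraries lay below it. From E18.5 to the adult Obsl1 was called lower in 1N cells, and without library 1 of E18.5 2N in 2N cells as well. This 1N call was lost without E18.5 1N library 2 or 3 or adult 1N library 2 or 3 (adjusted p from 0.051 to 0.0991). From P7 to the adult Obsl1 fell by 1.79-fold in 1N cells (log2 -0.84 ± 0.24, adjusted p = 0.00871) and by 1.58-fold in 2N cells (log2 -0.66 ± 0.24, adjusted p = 0.0378). Leaving out P7 1N library 1 or adult 1N library 2 put the 1N call at an adjusted p of 0.051, and the 2N call was lost without P7 2N library 2 or 3 or adult 2N library 1 or 2 (adjusted p from 0.0971 to 0.145), under a replicate block (0.0548) and with no intensity trend (0.0554).

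Among the 11 Z-disc core genes, 6 rose and 1 fell from E18.5 to the adult in 1N cells, and 7 rose and none fell in 2N cells. That is 63.6% of the group in each class, against 53.8% of all genes in 1N and 57.7% in 2N cells. Cmya5 (ENSMUSG00000047419), encoding myospryn, a large muscle protein near the Z-disc, moved most of them. E18.5 libraries held 90.6, 94.4 and 96.1 CPM in 1N and 71.7, 84.5 and 101 CPM in 2N cells. P7 libraries held 265, 214 and 151 CPM in 1N and 235, 298 and 236 CPM in 2N cells. In the adult, Cmya5 reached 1191, 679 and 807 CPM in 1N and 1099, 896 and 897 CPM in 2N cells. The ranges at the 3 ages did not overlap in either class. The rise from P7 to the adult was 4.24-fold in 1N (log2 2.08 ± 0.21, adjusted p = 8.57e-07) and 3.77-fold in 2N cells (log2 1.91 ± 0.21, adjusted p = 2.64e-06).

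Tcap (ENSMUSG00000007877), or telethonin, which joins the ends of neighbouring titin molecules at the Z-disc, rose in both intervals. E18.5 libraries held 260.0, 259 and 220.5 CPM in 1N and 383, 219 and 217 CPM in 2N cells. P7 values were 627, 629 and 639 CPM in 1N and 643, 615 and 588 CPM in 2N cells, and adult values 1373, 1673 and 1537 CPM (1N) and 1333, 1635 and 1527 CPM (2N). At P7 the 6 libraries lay close together, above all E18.5 and below all adult libraries. Each interval brought a similar step: 2.57-fold and then 2.41-fold in 1N cells (adjusted p = 2.79e-05 and 1.7e-05), and 2.34-fold and then 2.43-fold in 2N cells (adjusted p = 4.62e-05 and 1.93e-05).

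Mypn, or myopalladin, which binds nebulin family proteins and alpha-actinin at the Z-disc, held 77.6 to 108 CPM in E18.5 1N and 32.6 to 90.6 CPM in E18.5 2N libraries, and 213 to 347 CPM in the adult. It rose 2.90-fold in 1N and 4.62-fold in 2N cells (adjusted p = 0.000364 and 8.68e-06), the latter 3.29-fold without library 1 of E18.5 2N. Myoz2, or calsarcin, which links calcineurin to the Z-disc, rose 2.52-fold in 1N and 2.09-fold in 2N cells over the same span. Desmin (Des), the intermediate filament that ties Z-discs together, rose 1.79-fold and 2.06-fold, calls that quantile normalization ended in both classes. Ldb3, or ZASP/Cypher, which binds alpha-actinin through a PDZ domain, rose 1.36-fold and 1.67-fold, but quantile normalization turned its sign in both classes. Of these 4 genes, Mypn and Myoz2 kept their calls under quantile normalization in both classes.

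Palld, the more widely expressed relative of Mypn that bundles actin, moved the other way in 1N cells. It stood at 441, 495 and 490.5 CPM in E18.5 1N and 268, 535 and 490.5 CPM in E18.5 2N libraries. P7 libraries held 406, 347 and 329 CPM in 1N and 438, 457 and 457 CPM in 2N cells, and adult libraries 387, 283 and 318 CPM (1N) and 314, 318 and 320.5 CPM (2N). The adult fell below E18.5 in 1N cells (log2 -0.54 ± 0.19, adjusted p = 0.0259), and below P7 in 2N cells (log2 -0.51 ± 0.19, adjusted p = 0.0491). The first call was lost in 4 of the single-library omissions and the second in 14 of them, as well as under voom weights and a replicate block (adjusted p = 0.0660). Without library 1 of E18.5 2N, Palld was also called lower in adult than in E18.5 2N cells. For the main cross-linker of the Z-disc, alpha-actinin 2 (Actn2), values ran from 3605 to 3887 CPM in E18.5 1N to 3849 to 4188 CPM in adult 1N libraries, with a difference of log2 0.12 ± 0.16 (adjusted p = 0.576). In 2N cells Actn2 was 1.45-fold higher in the adult than at E18.5 (adjusted p = 0.00966), 1.2-fold higher without library 1 of E18.5 2N, and turned in sign under quantile normalization. Csrp3 (muscle LIM protein), Flnc (filamin C) and Nebl (nebulette) did not change from E18.5 to the adult in either class: their log2 differences were 0.42, -0.39 and 0.13 in 1N and 0.28, 0.39 and 0.16 in 2N cells. Without library 1 of E18.5 2N, Csrp3 was called higher in the adult in both classes, where 64.8% of all genes were called in 1N and 63.0% in 2N cells.

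Of the 7 PDZ-LIM and synaptopodin adaptors, 2 rose and 4 fell from E18.5 to the adult in 1N cells, and 2 rose and 3 fell in 2N cells. That is 85.7% and 71.4% of these 7 genes, against 53.8% and 57.7% of all genes. Both directions occur within one family here: Synpo2 (myopodin) and Synpo2l (CHAP), which bind alpha-actinin and filamin, went opposite ways. For Synpo2 (ENSMUSG00000050315), E18.5 libraries held 88.7, 81.9 and 82.2 CPM in 1N and 22.8, 65.9 and 68.8 CPM in 2N cells. P7 libraries held 137, 119 and 106 CPM (1N) and 119, 124 and 136 CPM (2N), and adult libraries 383, 277 and 320.2 CPM (1N) and 381, 315 and 382 CPM (2N). The adult libraries lay above all others. The adult rise over E18.5 was 3.85-fold in 1N (log2 1.94 ± 0.29, adjusted p = 2.95e-05) and 7.62-fold in 2N cells (log2 2.93 ± 0.29, adjusted p = 2.67e-07), the latter 5.31-fold without library 1 of E18.5 2N.

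Synpo2l (ENSMUSG00000039376) declined instead. It stood at 614, 642 and 625 CPM in 1N and 390.1, 580.1 and 560.5 CPM in 2N libraries at E18.5. P7 values were 416, 338 and 360.5 CPM in 1N and 480.5, 498 and 448 CPM in 2N cells. Adult values were 196, 151 and 194 CPM (1N) and 165, 162 and 215 CPM (2N). P7 1N libraries lay below every E18.5 1N library. The P7 2N libraries lay within the E18.5 2N range only because of library 1 of E18.5 2N (390.1 CPM), and all lay below libraries 2 and 3. By P7 Synpo2l had fallen by 1.69-fold in 1N cells (adjusted p = 0.00250), with a 2N difference of log2 -0.08 ± 0.16 (adjusted p = 0.717). The test of whether the class difference itself changed between E18.5 and P7 gave log2 0.68 ± 0.22 and an adjusted p of 0.142. Without library 1 of E18.5 2N, neither the 2N difference at P7 nor this test was called. In the adult the level was 3.50-fold lower than at E18.5 in 1N and 2.80-fold lower in 2N cells (adjusted p = 6.15e-08 and 5.27e-07).

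The 4 Pdlim genes, which join an actin-binding PDZ domain to LIM domains, did not move together. Pdlim3 (ALP, ENSMUSG00000031636) stood at 50.8, 49.7 and 49.1 CPM in 1N and 71.3, 72.5 and 54.1 CPM in 2N libraries at E18.5. P7 values were 52.6, 51.9 and 82.9 CPM in 1N and 24.0, 28.3 and 38.4 CPM in 2N cells, and adult values 27.6, 35.7 and 22.9 CPM (1N) and 13.7, 21.2 and 13.7 CPM (2N). In 2N cells Pdlim3 fell by P7 (2.21-fold, log2 -1.14 ± 0.23, adjusted p = 0.00138) and again from P7 to the adult (1.87-fold, log2 -0.90 ± 0.23, adjusted p = 0.00621). In 1N cells it fell after P7 (2.16-fold, log2 -1.11 ± 0.23, adjusted p = 0.00123). The 1N difference from E18.5 to P7 was log2 0.29 ± 0.23 (adjusted p = 0.448), and the test of the difference between classes is given below; these comparisons share the P7 libraries with the class comparison at P7.

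Pdlim5 (ENH), a scaffold for protein kinase C, held 436 to 638 CPM at E18.5, 521 to 626 CPM at P7 and 892 to 1138 CPM in the adult. It rose from P7 to the adult by 1.76-fold in 1N and 1.62-fold in 2N cells (adjusted p = 0.000160 and 0.000716). Pdlim1 (CLP36) stood at 115, 146 and 149 CPM in P7 1N and 156, 146 and 144 CPM in P7 2N libraries, and at 104, 118 and 97.5 CPM (1N) and 116, 107 and 92.9 CPM (2N) in the adult; E18.5 libraries held 143, 134 and 127 CPM (1N) and 170.5, 134 and 135 CPM (2N). Its fall from P7 was small, 1.28-fold in 1N (adjusted p = 0.0409) and 1.42-fold in 2N cells (adjusted p = 0.00638). The 1N call was lost under median scaling (adjusted p = 0.218), with no intensity trend (0.0571) and in 8 of the single-library omissions (0.0509 to 0.153). The 1N fall of Pdlim1 from E18.5 to the adult was also lost under median scaling (adjusted p = 0.219) and with no intensity trend (0.0532). It was lost as well without E18.5 1N library 1 or 2 or adult 1N library 1 or 3 (0.0781 to 0.136). Pdlim7 (ENIGMA) held 60.2 to 70.2 CPM in E18.5 1N and 67.6 to 83.5 CPM in adult libraries and changed in no age comparison.

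Sorbs2 (ArgBP2), an adaptor with SH3 domains found at Z-discs, stood at 913, 862 and 930.5 CPM in E18.5 1N and 462, 816 and 836 CPM in E18.5 2N libraries. P7 libraries held 630.2, 664 and 610.3 CPM in 1N and 709, 687 and 742 CPM in 2N cells, and adult libraries 676, 586 and 581 CPM (1N) and 588, 614 and 565 CPM (2N). All P7 and adult 1N libraries lay below the E18.5 1N libraries. Adult 1N cells were 1.47-fold lower than E18.5 (log2 -0.56 ± 0.17, adjusted p = 0.00929). Without library 1 of E18.5 2N, Sorbs2 was also called lower than at E18.5 in P7 and adult 2N cells. The earlier fall to P7 in 1N cells (log2 -0.51 ± 0.17, adjusted p = 0.0413) was lost in many settings, at adjusted p values from 0.0513 to 0.118.

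In the thin filament group, 3 of 7 genes rose and 1 fell from E18.5 to the adult in 1N cells, and 4 rose and 1 fell in 2N cells. That is 57.1% and 71.4% of the group, against 53.8% and 57.7% of all genes. The gene that fell was Tpm2 (ENSMUSG00000028464), encoding beta-tropomyosin, one of the coiled-coil proteins that lie along actin and control access of myosin. At E18.5 it stood at 92.6, 87.0 and 88.6 CPM in 1N and 72.9, 79.3 and 78.8 CPM in 2N libraries. At P7 it stood at 21.1, 31.6 and 42.4 CPM in 1N and 33.8, 55.9 and 57.9 CPM in 2N libraries. In the adult, Tpm2 was down to 3.84, 5.18 and 5.2 CPM in 1N and 3.01, 4.46 and 4.88 CPM in 2N libraries. The 3 ages did not overlap in either class, and adult Tpm2 was 18.9-fold lower than at E18.5 in 1N (log2 -4.24 ± 0.26, adjusted p = 9.49e-10) and 18.9-fold lower in 2N cells (log2 -4.24 ± 0.26, adjusted p = 7.16e-10). By P7 it had fallen 2.94-fold in 1N cells (adjusted p = 0.000393) and 1.61-fold in 2N cells (adjusted p = 0.0461). The 2N call at P7 was lost in several settings, and without P7 2N library 1 the difference was -0.44 on the log2 scale (adjusted p = 0.223). Summed markers of smooth muscle and pericytes, cells that also make Tpm2, stood at 1240 to 1390 CPM in E18.5 1N, 655 to 931 CPM in P7 1N and 275 to 300 CPM in adult 1N libraries. These markers did not all follow the sum. Pdgfrb was at 0 in every E18.5 1N library and above 0 in every P7 and adult 1N library, and Cnn1 was at 0 in adult 1N libraries 1 and 2. The part of these markers in the Tpm2 levels was not tested.

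Tpm1, the main striated tropomyosin of the heart, held 2487 to 2705 CPM in E18.5 1N, 2312 to 3796 CPM in E18.5 2N, 3804 to 4683 CPM in P7 and 4710.0 to 5595 CPM in adult libraries. It was 1.98-fold higher in adult than in E18.5 1N cells (adjusted p = 5.58e-05). In 2N cells it was 1.81-fold higher (adjusted p = 0.000196), with a turned sign under quantile normalization (log2 -0.10), which also ended the 1N call. The tropomyosin genes therefore moved in opposite directions under the authors' scaling. Lmod2 (ENSMUSG00000029683), or leiomodin 2, an actin nucleator that elongates thin filaments, rose in both intervals. E18.5 libraries held 67.8, 62.7 and 69.5 CPM in 1N and 137, 60.3 and 76.8 CPM in 2N cells, and P7 libraries 137, 108 and 136 CPM (1N) and 160.1, 199.5 and 148 CPM (2N). Adult libraries held 353, 425 and 382 CPM (1N) and 382, 439 and 378 CPM (2N). Apart from library 1 of E18.5 2N, which lay within the P7 range, E18.5, P7 and adult libraries did not overlap. The rise from E18.5 to the adult was 5.79-fold in 1N (log2 2.53 ± 0.22, adjusted p = 5.51e-08) and 4.64-fold in 2N cells (log2 2.21 ± 0.22, adjusted p = 2.29e-07).

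The cap of the pointed end, Tmod1 (tropomodulin 1), which acts against leiomodin, held 504 to 537 CPM in E18.5 1N and 530.2 to 612 CPM in adult 1N libraries, a difference of log2 0.13 ± 0.15 (adjusted p = 0.481). The capping protein subunits Capzb and Capza2, which close the barbed end at the Z-disc, differed by log2 0.16 ± 0.12 and 0.18 ± 0.10 over the same span in 1N cells, and neither call was made. In 2N cells Tmod1 and Capza2 were called higher in the adult (log2 0.42 ± 0.15 and 0.35 ± 0.10), with a turned sign under quantile normalization for both. Nexn (nexilin), an actin-binding Z-disc protein, rose in adult 1N cells by 1.43-fold over E18.5 (adjusted p = 0.0470), a call lost in 13 of the 18 omissions of a single library, under a replicate block (adjusted p = 0.0504) and with no intensity trend (0.0672), and turned in sign by quantile normalization.

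The 2 measured Xin repeat genes encode actin-binding proteins that reach from the Z-disc region to the intercalated disc, the junction between heart cells. Xirp2 (ENSMUSG00000027022), also called Xin-beta or myomaxin, had the largest fitted rise from E18.5 to the adult of the 39 genes in both classes. At E18.5 it stood at 7.86, 8.30 and 4.87 CPM in 1N and 5.22, 1.85 and 6.08 CPM in 2N libraries. At P7 it stood at 77.3, 86.3 and 83.4 CPM in 1N and 102, 75.3 and 94.4 CPM in 2N libraries. In the adult, Xirp2 reached 361, 265 and 321 CPM in 1N and 379, 355 and 276 CPM in 2N libraries. No library overlapped between ages. The rise to P7 was 12-fold in 1N (log2 3.59 ± 0.33, adjusted p = 9.13e-07) and 23.0-fold in 2N cells (log2 4.52 ± 0.33, adjusted p = 4.55e-08). From E18.5 to the adult it came to 45.7-fold in 1N and 85.4-fold in 2N cells (adjusted p = 8.3e-10 and 1.09e-10). Xirp1 held 514 to 602 CPM in E18.5 1N, 139 to 564 CPM in E18.5 2N and 558 to 971 CPM in adult libraries. Its 1N difference from E18.5 to the adult was log2 0.32 ± 0.36 (adjusted p = 0.483). The 2N rise of 2.36-fold (adjusted p = 0.00797) was 1.51-fold without library 1 of E18.5 2N.

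The LIM-only genes Fhl1 and Fhl2 encode proteins that bind titin and signalling molecules. Fhl2 stood at 1007, 1017 and 958 CPM in 1N and 1325, 1001 and 909 CPM in 2N libraries at E18.5. P7 values were 1430.0, 1626 and 1921 CPM (1N) and 1729, 1727 and 1993 CPM (2N), and adult values 2356, 2725 and 2412 CPM (1N) and 2675, 2700.0 and 2353 CPM (2N). All adult libraries lay above all P7 libraries, and the adult rise over E18.5 was 2.51-fold in 1N and 2.42-fold in 2N cells (adjusted p = 7.28e-07 and 9.64e-07). Fhl1 (ENSMUSG00000023092) stood at 191, 196 and 183 CPM in 1N and 199, 170.4 and 164 CPM in 2N libraries at E18.5. P7 values were 205, 229 and 237 CPM (1N) and 150.4, 147 and 149 CPM (2N), and adult values 257, 276 and 214 CPM (1N) and 252, 228 and 197 CPM (2N). The P7 2N libraries were the lowest of all 18. From P7 to the adult Fhl1 rose 1.51-fold in 2N cells (log2 0.59 ± 0.12, adjusted p = 0.000865), with a 1N difference of log2 0.15 ± 0.12 (adjusted p = 0.347). The 2N comparison shares the P7 2N libraries with the class comparison at P7 below.

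The muscle ring-finger ligases Trim63 (MuRF1), Trim55 (MuRF2) and Trim54 (MuRF3) bind titin and microtubules and mark sarcomeric proteins for degradation. Trim54 (ENSMUSG00000062077) rose most in the second interval. At E18.5 it stood at 9.78, 7.11 and 8.08 CPM in 1N and 6.30, 7.62 and 6.93 CPM in 2N libraries. At P7 it stood at 25, 19.2 and 22.5 CPM in 1N and 39.7, 23.3 and 36.5 CPM in 2N libraries. In the adult, Trim54 reached 329.9, 342 and 341 CPM in 1N and 343, 342 and 366 CPM in 2N libraries. The adult libraries lay within a narrow band far above the rest. Trim54 was 2.68-fold higher at P7 than at E18.5 in 1N (adjusted p = 2.97e-05) and 4.64-fold higher in 2N cells (adjusted p = 1.5e-07). From P7 to the adult the rise was 15.2-fold in 1N (log2 3.93 ± 0.18, adjusted p = 1.51e-10) and 10.8-fold in 2N cells (log2 3.44 ± 0.18, adjusted p = 6.18e-10).

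Trim55 fell over the same interval. E18.5 libraries held 284, 254 and 253 CPM in 1N and 215, 239 and 244 CPM in 2N cells. P7 libraries held 191, 208 and 164 CPM (1N) and 215, 302 and 186 CPM (2N), and adult libraries 68.1, 91.3 and 94.3 CPM (1N) and 74.3, 86.2 and 94.7 CPM (2N). Every adult library lay below every P7 library, with a fall of 2.23-fold in 1N (log2 -1.16 ± 0.17, adjusted p = 4.02e-05) and 2.71-fold in 2N cells (log2 -1.44 ± 0.17, adjusted p = 5.32e-06). Trim63 moved least of the ligases. Its E18.5 libraries held 396, 371 and 381 CPM in 1N and 318, 279.6 and 339.9 CPM in 2N cells, its P7 libraries 499, 470.5 and 503 CPM (1N) and 549.7, 524 and 527 CPM (2N), and its adult libraries 576, 629.6 and 611 CPM (1N) and 576, 658 and 691 CPM (2N). Adult 1N cells were 1.58-fold higher and adult 2N cells 2.05-fold higher than at E18.5 (adjusted p = 2.45e-05 and 1.34e-07), the 1N call being lost under quantile normalization (adjusted p = 0.275). Unc45b, a myosin chaperone, differed by log2 -0.11 ± 0.20 in 1N and 0.46 ± 0.20 in 2N cells between E18.5 and the adult and was called in neither. Smyd1, a methyltransferase that assists myosin folding, spread widely within groups, from 128 to 501 CPM among E18.5 1N and 406 to 920.5 CPM among adult 1N libraries; its adult 2N rise of 3.60-fold over E18.5 passed the test (adjusted p = 0.00730) and the 1N difference of log2 1.2 ± 0.53 did not (adjusted p = 0.0697). Under a replicate block over all libraries, Smyd1 was also called higher in adult 1N cells (adjusted p = 0.0302 against E18.5 and 0.0215 against P7), although same-numbered libraries of different ages did not deviate together over all genes (correlations from -0.128 to 0.136).

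**Figure D2:**
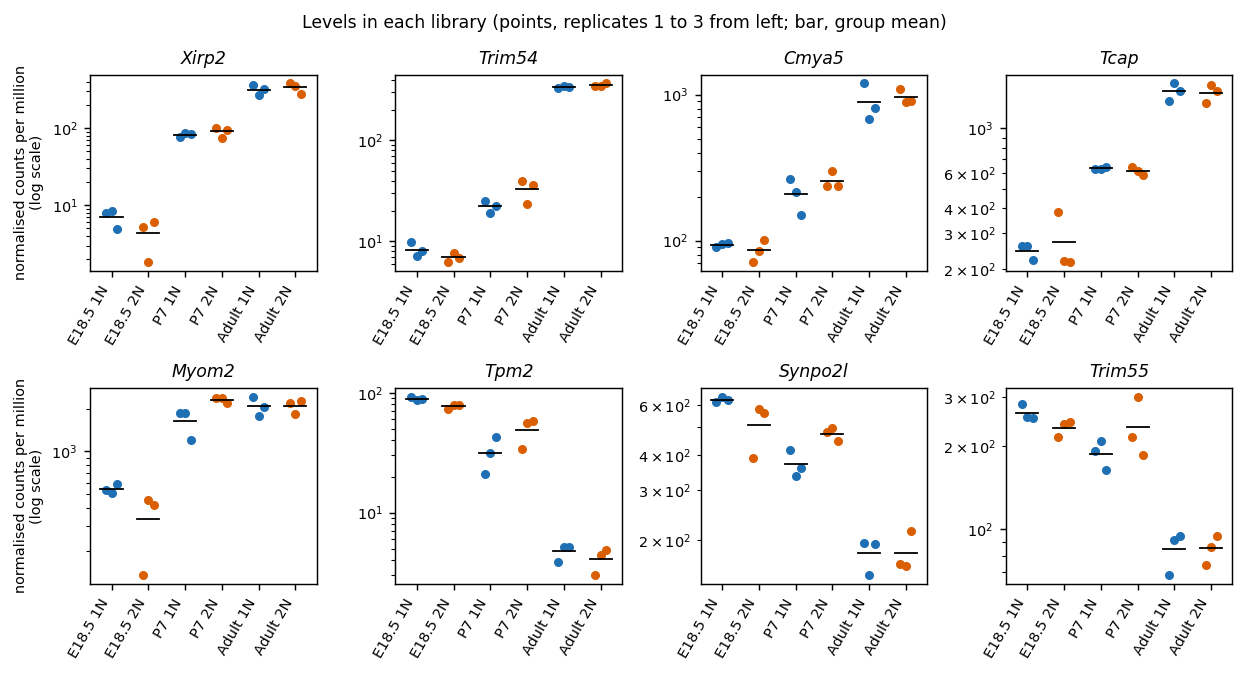
Normalised CPM (log axis) of 8 genes in each library by age and nuclear class; points are libraries and bars are group means (n = 3). Xirp2, Trim54, Cmya5, Tcap and Myom2 are higher in every adult library than in any E18.5 library, and Tpm2, Synpo2l and Trim55 are lower.

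Within families, the ratio of counts between relatives in the same library showed which gene led at each age. It does not depend on scaling between libraries. Counts of Trim54 were 0.0280 to 0.0345 of those of Trim55 at E18.5, 0.0772 to 0.196 at P7 and 3.61 to 4.85 in the adult. Per kilobase of the longest coding transcript, Trim54 stood at a mean of 0.0569 of the Trim55 level in E18.5 1N and 7.36 times it in adult 1N libraries, so the order of the pair reversed. The Synpo2 to Synpo2l ratio went from 0.0584 to 0.145 at E18.5, through 0.248 to 0.351 at P7, to 1.65 to 2.31 in the adult. Xirp2 went from 0.00327 to 0.0377 of the Xirp1 counts at E18.5 to 0.284 to 0.536 in the adult and stayed the minor Xin gene by counts. The Myom2 to Myom1 ratio was 0.338 to 0.661 at E18.5, 1.39 to 1.96 at P7 and 1.15 to 1.42 in the adult, so that the P7 and adult ranges overlapped at one end. Tpm2 was 0.0192 to 0.0360 of Tpm1 at E18.5, 0.0049 to 0.0139 at P7 and 0.000586 to 0.0011 in the adult.

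Some of these ratios did not overlap between the nuclear classes. The Pdlim5 to Pdlim3 ratio was lower in 2N libraries at E18.5, at 9.44 to 10.9 in 1N and 6.01 to 8.95 in 2N, and higher in 2N libraries later, at 7.18 to 11.9 in 1N and 16.2 to 25.8 in 2N at P7 and 31.9 to 41.9 in 1N and 51.8 to 76.5 in 2N in the adult. The Fhl2 to Fhl1 ratio was higher in 2N libraries at E18.5 (5.19 to 5.27 in 1N, 5.56 to 6.67 in 2N) and at P7 (6.97 to 8.10 in 1N, 11.5 to 13.4 in 2N), and the classes overlapped in the adult (9.17 to 11.9 over both). The Pdlim7 to Pdlim5 ratio was lower in 2N libraries at P7, at 0.115 to 0.18 in 1N and 0.0894 to 0.1 in 2N. At E18.5 the ratios of Myom2 to Myom1 (0.594 to 0.661 in 1N, 0.338 to 0.536 in 2N) and of Synpo2 to Synpo2l (0.128 to 0.145 in 1N, 0.0584 to 0.123 in 2N) were lower in 2N libraries. Library 1 of E18.5 2N gave the values farthest from 1N for these ratios and for Fhl2 to Fhl1. Libraries 2 and 3 held 0.536 and 0.516 for Myom2 to Myom1 and 0.114 and 0.123 for Synpo2 to Synpo2l. For Fhl2 to Fhl1 they held 5.88 and 5.56. Without library 1 these gaps were narrower, still with no overlap. The ratios of Trim54 and Trim63 to Trim55, of Xirp2 to Xirp1 and of Tpm2 to Tpm1 overlapped between the classes at every age. Those of Myom2 to Myom1 and Synpo2 to Synpo2l overlapped at P7 and in the adult, and that of Pdlim7 to Pdlim5 at E18.5 and in the adult. Several ratios without overlap share Pdlim3 or Fhl1, the members called at P7 below. No test was run on these ratios, and no share over other gene pairs is given here.

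**Figure D3:**
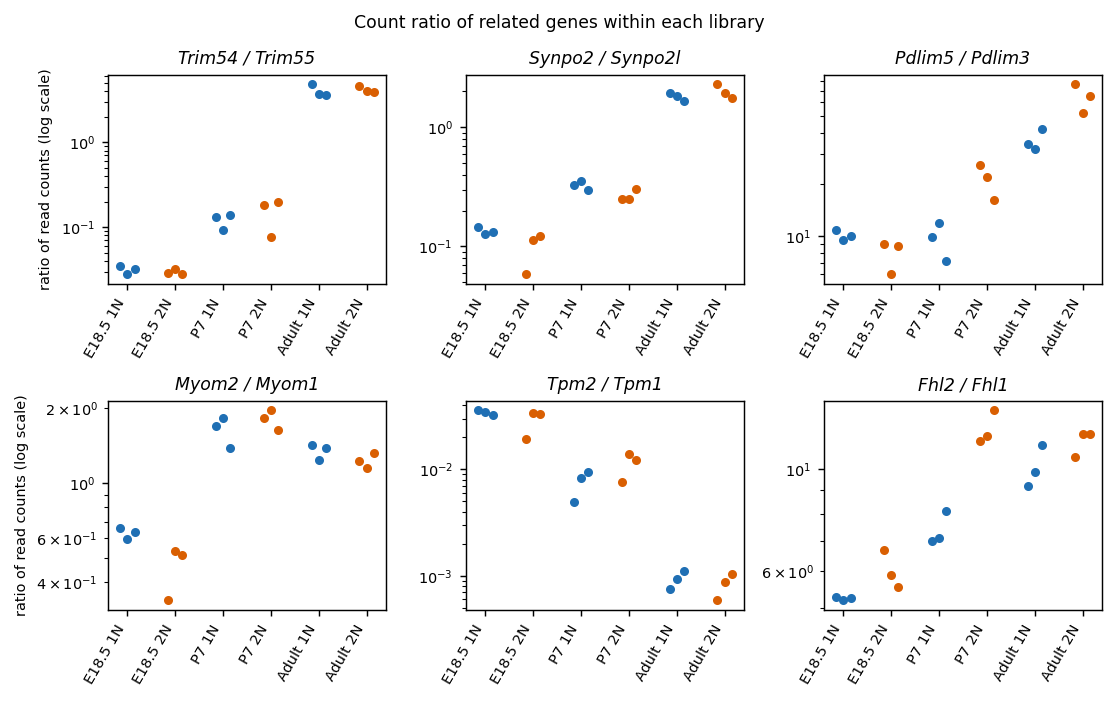
Ratio of counts (log axis) between 6 pairs of relatives in each of the 18 libraries, by age and nuclear class. Trim54 to Trim55 and Synpo2 to Synpo2l pass from below 1 at E18.5 to above 1 in the adult, and Pdlim5 to Pdlim3 and Fhl2 to Fhl1 are higher in 2N than in 1N libraries at P7.

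On the scale of CPM per kilobase of the longest coding transcript, which allows levels to be compared between genes, Actn2 (1240), Csrp3 (1210), Mybpc3 (1050), Tpm1 (896) and Fhl2 (636) led in E18.5 1N cells. In adult 1N cells the order was Tpm1 (1780), Csrp3 (1620), Tcap (1610), Fhl2 (1600), Mybpc3 (1390) and Actn2 (1340). Tcap entered the leading genes from 260.0 per kilobase at E18.5. The lowest member was Xirp2 at E18.5 (0.585) and Tpm2 in the adult (2.18). Together the 39 genes took 3.19% to 3.20% of all counts in E18.5 1N, 3.41% to 3.72% in P7 1N and 3.75% to 4.07% in adult 1N libraries. In 2N libraries they took 2.48% to 3.13% at E18.5, 3.78% to 3.95% at P7 and 3.83% to 3.90% in the adult.

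The comparison of 2N with 1N cells at each age asks whether nuclear number goes with a different sarcomere programme. At E18.5 no member was called by limma, against 0.805% of all genes, and voom weights also called 0. Of the 39 genes, 11 had an unadjusted p under 0.05, against 1679 of all 12048 genes. The median difference was -0.202 on the log2 scale, against -0.006 over all genes, with 26 genes lower and 13 higher in 2N cells. The smallest adjusted p values were those of Trim63 (0.215, log2 -0.30 ± 0.10), Synpo2 (0.236, log2 -0.84 ± 0.29) and Myom2 (0.256, log2 -0.89 ± 0.32). Without library 1, no member was called either, against 1.14% of all genes. In that fit 5 members had an unadjusted p under 0.05, for which the count over all genes is not given here. There 33 genes were lower and 6 higher in 2N cells (median -0.136). Other cell types' markers moved with class at this age: fibroblast markers (9 of 10 measured) summed to 51.0 to 101 CPM in 1N and 330 to 936 CPM in 2N libraries, endothelial markers (10 of 10) to 15.6 to 33.2 and 57.5 to 112 CPM, leukocyte markers (5 of 9) to 1.64 to 3.16 and 14.0 to 34.5 CPM, and erythroid markers (5 of 6) to 38.5 to 67.3 and 101 to 177 CPM. Cardiomyocyte markers summed to 37300 to 43500 CPM in 1N and 32500 to 36800 CPM in 2N libraries. The leukocyte markers Laptm5, C1qb and C1qc were each at 0 in at least 1 E18.5 1N library. The part of these markers in the members' levels was not tested.

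At P7, 2 of the 39 genes (5.13%) were called, both lower in 2N cells, against 2.12% of all genes, of which most were lower (2.06%, with 0.0664% higher). Fhl1 stood at 205, 229 and 237 CPM in 1N and 150.4, 147 and 149 CPM in 2N libraries, with no overlap. It was 1.5-fold lower in 2N cells (log2 -0.59 ± 0.12, adjusted p = 0.0127). Pdlim3 stood at 52.6, 51.9 and 82.9 CPM in 1N and 24.0, 28.3 and 38.4 CPM in 2N libraries, again without overlap, and was 2.05-fold lower in 2N cells (log2 -1.04 ± 0.23, adjusted p = 0.0269). Both calls are close to the threshold. Median scaling gave adjusted p values of 0.0674 for Fhl1 and 0.055 for Pdlim3. Fhl1 lost its call without P7 1N library 2 or 3 or P7 2N library 2 or 3 (0.0506 to 0.0829), and Pdlim3 without P7 1N library 3 or P7 2N library 1 or 2 (0.106 to 0.179).

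The other members leaned the opposite way at P7. Of the 39 genes, 34 had a higher mean in 2N cells, and the median difference was 0.203 on the log2 scale against 0.022 over all genes. The P7 libraries pair by number, and a fit on P7 and adult libraries with the replicate number as a block called 8 members, against 6.2% of all genes (1.54% higher, 4.66% lower). Of these, Actn2 (log2 0.29 ± 0.07, adjusted p = 0.0493), Myom1, Myom2, Tpm2 and Trim54 were higher in 2N cells, and Fhl1, Pdlim3 and Pdlim7 lower. Without library 1 of E18.5 2N, which enters the shared estimate of spread, 7 were called, against 4.76% of all genes (0.822% higher, 3.94% lower): Actn2, Ldb3, Mybpc3 and Myom1 higher, and Fhl1, Pdlim3 and Pdlim7 lower. Pdlim7 stood at 86.0, 71.0 and 107 CPM in P7 1N and 59.4, 56.0 and 62.0 CPM in P7 2N libraries (log2 -0.56 ± 0.22, adjusted p = 0.321 in the unblocked fit of all libraries). Cardiomyocyte markers summed to 34500 to 37900 CPM in P7 1N and 40900 to 46200 CPM in P7 2N libraries, leukocyte markers to 15.1 to 25.9 and 2.23 to 4.68 CPM, and atrial markers (5 of 6 measured) to 86.5 to 158 and 46.7 to 109 CPM. The leukocyte markers did not all follow their sum. Laptm5 was at 0 in every P7 1N and in no P7 2N library, and C1qb was at 0 in every P7 1N library but only in library 3 of P7 2N. The part of these markers in the members' differences was not tested.

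In the adult, limma called no member, against 0.0913% of all genes, and voom weights called 0. Of the 39 genes, 1 had an unadjusted p under 0.05, against 301 of all 12048 genes. The median difference was 0.012. Pdlim3 was again the member with the largest difference, at 27.6, 35.7 and 22.9 CPM in 1N and 13.7, 21.2 and 13.7 CPM in 2N libraries, which did not overlap (log2 -0.83 ± 0.23, adjusted p = 0.477). A replicate block gave Pdlim3 an adjusted p of 0.0471 over all libraries, where 0.208% of all genes were called, and of 0.0208 over P7 and adult libraries, where 0.249% were. Smooth muscle and pericyte markers summed to 275 to 300 CPM in adult 1N and 167 to 220 CPM in adult 2N libraries, endothelial markers to 84.7 to 89.0 and 96.6 to 116 CPM, leukocyte markers to 10.9 to 15.6 and 8.57 to 10.5 CPM, and atrial markers to 7.57 to 45 and 2.13 to 7.66 CPM; their part in the Pdlim3 difference was not tested. The next smallest adjusted p values were those of Fhl1 (log2 -0.14 ± 0.12, adjusted p = 1.00) and Tpm2 (log2 -0.22 ± 0.26, adjusted p = 1.00), whose adult libraries overlapped between the classes. The width of the adult intervals differed between genes: the 95% interval of the log2 difference ran from -0.39 to 0.33 for Tcap, from -0.33 to 0.43 for Trim54, from -0.20 to 0.18 for Des, from -0.60 to 0.79 for Xirp2 and, the widest of the 39, from -0.87 to 1.39 for Smyd1.

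Whether the class difference itself changed between E18.5 and P7 was tested as an interaction. Only Pdlim3 was called, 1 of 39 (2.56%) against 2.33% of all genes (0.232% higher, 2.1% lower): its 2N over 1N difference went from log2 0.39 ± 0.23 at E18.5 to -1.04 ± 0.23 at P7, a change of -1.43 ± 0.33 (adjusted p = 0.0329). The call was lost in single-library omissions at adjusted p values from 0.0615 to 0.0921. The median interaction of the members was 0.458, against 0.003 over all genes. Of the 39 genes, 18 had an unadjusted p under 0.05, against 1775 of all 12048 genes. Without library 1 of E18.5 2N, 6 were called, against 4.71% (1.05% higher, 3.66% lower): Actn2, Ldb3, Mybpc3, Myom2 and Unc45b with a higher 2N over 1N difference at P7 than at E18.5, and Pdlim3 with a lower one. Between P7 and the adult, limma's interaction called 0 of 39 against 0.208% of all genes, and 0 under voom weights. An unadjusted p under 0.05 was reached by 2 members, against 568 of all 12048 genes. Without library 1 of E18.5 2N, which enters the shared estimate of spread, 10 members had an unadjusted p under 0.05 and 0 were called. The count over all genes at that unadjusted p is not given here. With all libraries, the smallest adjusted p values of limma's interaction were those of Fhl1 (log2 0.45 ± 0.17, adjusted p = 0.670), Tpm2 (log2 -0.87 ± 0.36, adjusted p = 0.835) and Trim54 (log2 -0.49 ± 0.25, adjusted p = 1.00).

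**Figure D4:**
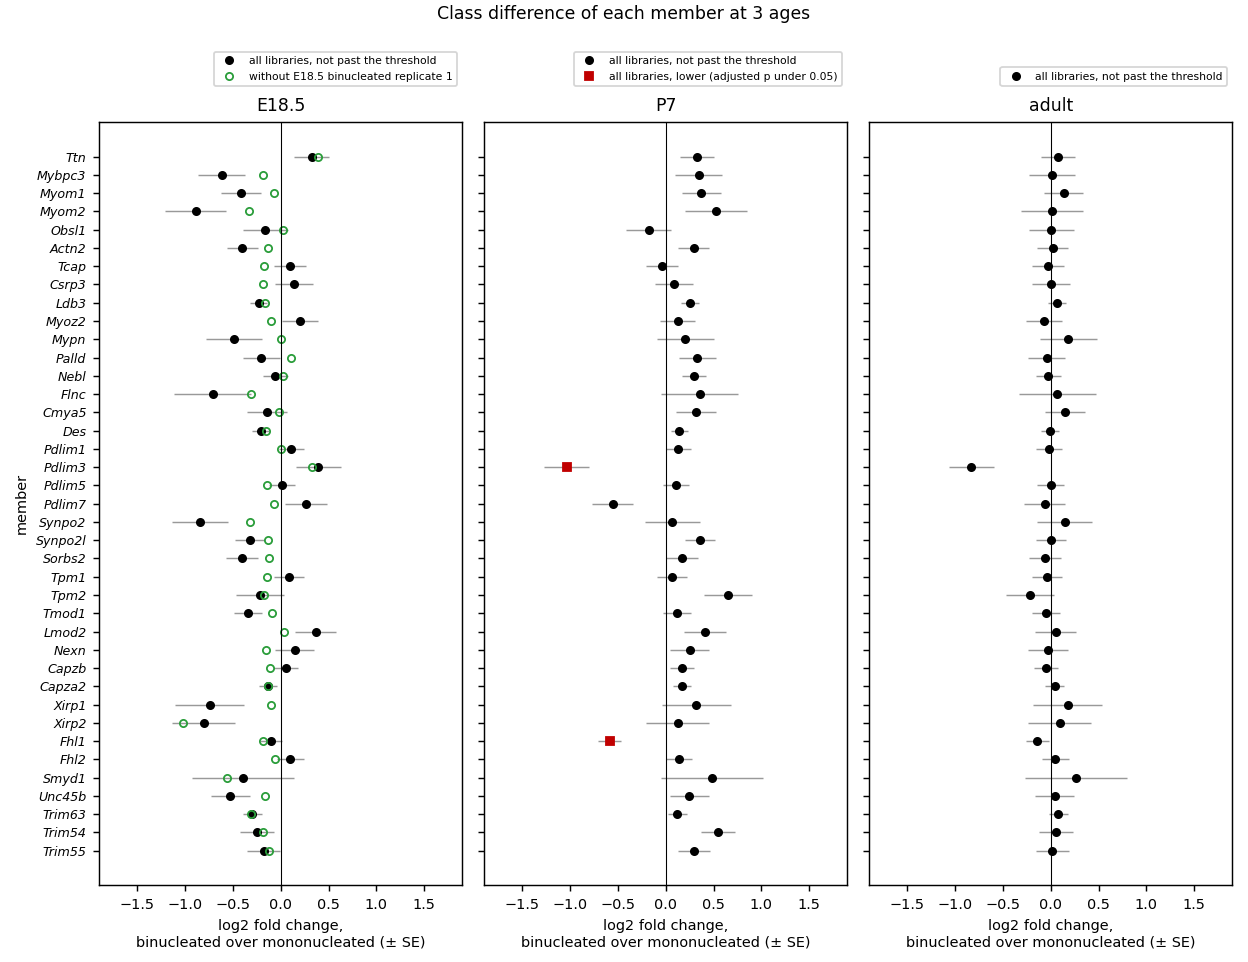
Log2 difference of 2N over 1N cells with its standard error for each of the 39 genes, by age. Fhl1 and Pdlim3 at P7, marked in red, passed the test, and open green circles give the E18.5 values without library 1 of E18.5 2N.

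The departure of library 1 of E18.5 2N from the mean of libraries 2 and 3 went along with transcript length. Many genes with long coding transcripts were low in it, such as Xirp1 (3.79-fold lower), Myom2 (3.22-fold), Synpo2 (2.95-fold), Mypn (2.75-fold) and Mybpc3 (2.47-fold). Several short ones were high: Lmod2 (2.01-fold higher), Csrp3 (1.97-fold), Myoz2 (1.88-fold) and Tcap (1.76-fold). Pearson's r between the departure and log length was -0.472 over the 39 genes, -0.612 without Ttn, whose transcript is by far the longest, and -0.391 over 11927 genes. Other libraries also showed such a trend over the 39 genes, with smaller departures: r was -0.641 in adult 1N library 2, -0.607 in P7 1N library 3 and 0.613 in adult 1N library 1. For E18.5 2N library 3 it was 0.575 (0.744 without Ttn), but that library is set against a mean that includes library 1. Departures within 1 group are tied to each other in this way and are not separate cases. A length trend in the members was thus also present in P7 1N and adult 1N libraries, which are compared without library 1 of E18.5 2N. These are descriptions across genes, which share 1 library and its depth. An added limma fit with a weight per library gave library 1 of E18.5 2N 0.0494, where the next lowest weight was 0.563. Some long genes went against the pattern: Xirp2 (12 kilobases) was 1.56-fold higher and Pdlim5 (5.02 kilobases) 1.41-fold higher in it, and Ttn, with the longest transcript of 107 kilobases, was 1.16-fold lower.

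**Figure D5:**
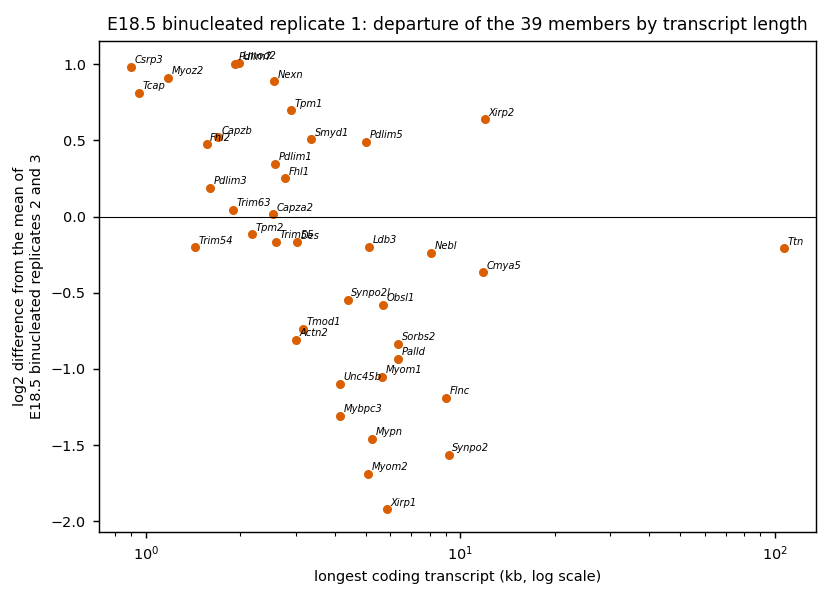
Departure of library 1 of E18.5 2N from the mean of libraries 2 and 3 of its group (log2) against length of the longest coding transcript in kilobases (log axis), 1 point per member. Points above 0 are mostly short transcripts, with Xirp2 at 12 kilobases an exception, points far below 0 are transcripts of several kilobases, and Ttn is alone at the right.

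A further list of sarcomere and actin regulator genes outside the 39, of which 57 of 64 were measured, gives the surroundings. From E18.5 to the adult 23 rose and 19 fell in 1N cells, and 23 rose and 18 fell in 2N cells, against 53.8% and 57.7% of all genes changed in either direction. Ankrd23, a titin-binding ankyrin repeat protein, was 13.0-fold higher in 1N and 20.6-fold higher in 2N cells, and Sync (syncoilin), a partner of desmin, 9.67-fold higher and 13.3-fold higher. Csrp1, a relative of Csrp3 found in smooth muscle, was 26.0-fold lower and 23.2-fold lower in the adult (adjusted p = 6.36e-10 and 7.37e-10). Between 1N and 2N cells none was called at any age by limma, against 0.805% of all genes at E18.5, 2.12% at P7 and 0.0913% in the adult. Of the 57 genes, 11 had an unadjusted p under 0.05 at E18.5, 7 at P7 and 3 among adults. Over all 12048 genes it was 1679, 1210 and 301. In the test of a changed class difference from E18.5 to P7, Ankrd23 (log2 0.95 ± 0.19, adjusted p = 0.0126) and Fbxo40 (log2 1.18 ± 0.29, adjusted p = 0.0457) were higher and Tpm4, a non-muscle tropomyosin (log2 -1.62 ± 0.32, adjusted p = 0.0113), was lower. Fbxo40 stood at 57.2, 121 and 119.5 CPM in E18.5 2N libraries, so that library 1 enlarges its value.

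Of 13 transcription regulators of sarcomere genes, 4 rose and 2 fell from E18.5 to the adult in 1N cells, and 4 rose and 1 fell in 2N cells. That is 46.2% and 38.5% of the list, against the 53.8% and 57.7% of all genes that changed. Foxo3, a forkhead factor linked to muscle ubiquitin ligases, was 3.68-fold higher in 1N and 2.73-fold higher in 2N cells (adjusted p = 7.01e-05 and 0.000692). Srf, which binds CArG boxes, rose 1.67-fold from P7 to the adult in 1N cells (adjusted p = 0.00682), where Mef2d also rose, by 1.52-fold. By P7, Mef2a had risen 1.71-fold in 2N cells, and Mef2c had fallen 1.71-fold in 1N cells. Mef2a stood at 236, 462 and 496 CPM in E18.5 2N and 590, 657 and 698 CPM in P7 2N libraries. The lowest of these values is library 1 of E18.5 2N, which enlarges the rise. None of the 13 was called between the nuclear classes or in the interactions.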

How the data were processed

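The authors deposited log2 values for 12048 Ensembl genes per library, made with STAR and limma on build mm9 per the submitters' processing notes, which give no versions. Each deposited log2 value equals log2 of a whole count plus 0.5 times 1 factor per library: 100% of values came out whole within 0.001. CPM were computed from these counts with the authors' scaling factors, and the offset understates fold changes of low genes. The factors followed age, at 1.06 to 1.18 at E18.5, 0.976 to 1.10 at P7 and 0.847 to 0.870 in the adult. A smaller factor gives higher CPM, so the scaling goes along with age in the age comparisons. Symbols (11927 identifiers, 121 without one) and transcript lengths came from GENCODE M21, and how the authors' counting split reads between relatives such as Tpm1 and Tpm2 was not given in the sources used here.

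limma 3.58.1 in R 4.3.3 fitted 6 group means over 18 libraries (12 residual degrees of freedom, intensity trend), tested on simulated data, with Benjamini-Hochberg adjustment over all genes in each of 11 comparisons. Members and lists were chosen with earlier results of these data known. By rule, up to 6 called members per direction and age comparison, every called member per class comparison (or the 3 smallest adjusted p), and paralogs were described per library. For each other list, up to 3 genes per comparison were named.

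Same-numbered 1N and 2N libraries deviated together at P7 (correlations 0.182, 0.191 and 0.236) and in the adult (0.261, 0.264 and 0.327). At E18.5 their correlations were lower (0.088, 0.054 and 0.158) and not all passed the limit of 0.1 used here. All lay above those of unlike numbers at E18.5 (at most 0.002). By that limit the replicate numbers were taken as pairs, from the data, at P7 and in the adult. Alternatives were quantile normalization, median scaling, voom weights, library weights, the compared groups alone, a filter on low values (10053 genes kept), no trend, the replicate block and leaving out each library. For class comparisons the replicate block paired same-numbered libraries within each age, E18.5 included. For age comparisons it took the number as an effect shared by all ages, although same-numbered libraries of different ages did not deviate together (correlations from -0.128 to 0.136). The class block fitted to P7 and adult libraries without E18.5 was chosen after seeing the data. No value column of a library was left out.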

Additional observations from a re-analysis of the deposited data

Results flagged for a closer look

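The class difference of Pdlim3 changed between E18.5 and P7. The test of that change gave -1.43 on the log2 scale, from 0.39 at E18.5, where every 2N library lay above the 1N libraries, to -1.04 at P7, where every 2N library lay below them. The adjusted p of limma's interaction was 0.0329, and leaving out a single library raised it to as much as 0.0921.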

How the results depend on the processing

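Of 147 calls followed for single genes, leaving out each library in turn gave 2646 values, of which 2510 kept direction and side of the threshold, 136 lost the call and 0 turned in sign. The other settings gave 1184 values: 1100 kept both, 67 lost the call, 3 gained one and 14 turned in sign, all under quantile normalization. These were Ldb3 from E18.5 to P7 in 2N (-0.013), from P7 to the adult in 1N (-0.071) and 2N (-0.044) and from E18.5 to the adult in 1N (-0.307) and 2N (-0.057); Fhl2 from P7 to the adult in 1N (-0.011); Trim63 from P7 to the adult in 1N (-0.134) and 2N (-0.044); Nexn from E18.5 to the adult in 1N (-0.1); and, from E18.5 to the adult in 2N, Tpm1 (-0.104), Ttn (-0.076), Capza2 (-0.18), Actn2 (-0.173) and Tmod1 (-0.153). The cause was not tested.

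For the class difference at P7, median scaling called 0 members (limma; 2 in the reported fit), library weights 11, and leaving out a library 0 to 7. With the replicate block on P7 and adult libraries alone it was 8 at P7 and 1 in the adult, and with the replicate block over all libraries 1 in the adult. From E18.5 to P7, library weights called 24 members in 1N cells (13 in the reported fit) and the compared groups alone called 9 in 2N cells (22 in the reported fit), where fewer libraries estimate the spread. For the changed class difference from E18.5 to P7, voom weights called 2, library weights 12 and the replicate block 2, and from P7 to the adult library weights called 1. The shares of all genes called under voom weights, library weights and the compared groups alone are not given here. Leaving out a library gave 10 to 20 and 20 to 25 calls from E18.5 to P7 in 1N and 2N cells, 18 to 29 and 17 to 26 from P7 to the adult, 23 to 29 and 27 to 35 from E18.5 to the adult, 0 to 6 for the changed class difference at P7, and 0 for the class difference at E18.5, in the adult and for its change from P7 to the adult. Each of the highest counts above 0 came without library 1 of E18.5 2N. Over all libraries the replicate block gave a call to Pdlim3 in the adult (adjusted p = 0.0471), Tpm2 at P7 (0.0376) and in the changed class difference at P7 (0.0498), Trim55 from E18.5 to P7 in 1N (0.0486) and Smyd1 in adult 1N cells, and it ended those of Sorbs2 from E18.5 to P7 in 1N (0.0547), of Obsl1 (0.0548), Trim63 (0.0558) and Palld (0.066) from P7 to the adult in 2N and of Nexn from E18.5 to the adult in 1N (0.0504). In age comparisons the replicate block shares the number across ages, where same-numbered libraries did not deviate together over all genes. The calls it gave or ended there therefore do not rest on pairs seen in the data. Median scaling moved the median of all genes in the adult 1N comparisons from -0.013 to 0.093 against P7 and from -0.012 to 0.096 against E18.5.

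With 3 libraries a group, differences smaller than the spread between libraries cannot be shown, and read depth limits only the lowest values, such as Xirp2 at E18.5.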

Other observations

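Smyd1, which encodes a muscle methyltransferase, spread widely within groups. Its libraries held 501, 252 and 128 CPM in E18.5 1N and 244, 245 and 120 CPM in E18.5 2N cells. At P7 it stood at 394, 174 and 171 CPM in 1N and 490, 460 and 141 CPM in 2N cells, and adult libraries held 406, 920 and 522 CPM in 1N and 522, 964 and 665 CPM in 2N cells. Library 3 was the lowest at E18.5 and at P7 in both classes, and library 2 the highest in the adult in both.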
